A study of Homo sapiens and Mus musculus with 99 samples.

Results

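The nuclear genes of the respiratory chain are the genes whose proteins, made in the cytosol and imported into mitochondria, build complexes I to IV and ATP synthase. They were taken by gene symbol from the human count tables. The patterns covered the numbered NDUFA, NDUFB, NDUFC, NDUFS and NDUFV genes, SDHA to SDHD, the UQCR genes, the broadly used COX4I1 to COX8A isoforms and the ATP5F1, ATP5M and ATP5P genes. This gave 74 genes of 57820 rows, spread over 22 chromosomes. By symbol, 37 were placed in complex I, 4 in complex II, 8 in complex III, 10 in complex IV and 15 in ATP synthase. All NDUF genes, NDUFA4 among them, are therefore counted under complex I. All 74 passed the low-count filter in every experiment except NDUFA7 in 1 experiment, where 73 were tested.

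The study asked how airway epithelial cells respond to Aeg-S and Aeg-L, pore-forming proteins of the mould Alternaria alternata, and to extract of the mould (ALT). RNA was sequenced from NCI-H292 and NCI-H1437, epithelial lines from human non-small cell lung cancers, after 4 h in 51 libraries of 24 groups, out of 99 libraries in the series. Experiments are named here by line and run. H292-1 and H1437-4 compared the extracts labelled aegs KO ALT, aegl KO ALT and WT ALT with mock-treated cells in buffer (DPBS). H292-2 and H1437-3 compared Aeg-S/L given with EGTA, Aeg-S/L given with BAPTA-AM and Aeg-S/L alone with DPBS. H1437-1 compared ALT with an agent labelled Tra, and ALT alone, with DPBS, and H1437-2 compared Aeg-S, Aeg-L, Aeg-S/L with Tra and Aeg-S/L with DPBS. The tables of these last experiments name a MEK inhibitor. EGTA binds calcium outside cells and BAPTA-AM binds it inside them. Neither chelator and no Tra was given without a stimulus, so their own action cannot be told apart from their action on the stimulus. H1437-1 had 3 libraries per group and the others 2. The study's design speaks of biological replicates but the labels do not tie libraries to separate cultures, so p-values measure the spread between these libraries, which may be technical.

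Electrons enter the chain from NADH at complex I and from succinate at complex II, pass through ubiquinone to complex III and through cytochrome c to complex IV, where oxygen is reduced. Complexes I, III and IV move protons across the inner mitochondrial membrane, and ATP synthase uses their return to make ATP. Every complex except complex II also holds subunits encoded in mitochondrial DNA, so nuclear and mitochondrial transcripts must both be supplied. NRF1, the GABP factor, YY1 and coactivators of the PGC-1 family are known to act at many of the nuclear promoters.

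Promoters of members that stand for the main patterns below are shown first, from RefSeq on GRCh38.p14, as the 250 bases before the annotated start, written in the direction of the gene. COX5B (chr2:97645812-97646061, plus strand) and COX6A1 (chr12:120437863-120438112, plus strand) encode subunits of complex IV, the complex in which all 10 members fell with EGTA in both lines. UQCRFS1 (chr19:29213152-29213401, minus strand) encodes the Rieske iron-sulphur protein of complex III and NDUFS1 (chr2:206159445-206159694, minus strand) the largest iron-sulphur subunit of complex I, and both moved the other way. COX5B here, and COX4I1 in the plot of CPM with the chelators, were chosen for display after their values were seen. Capitals mark the letters GCATGCGC, the core of the NRF1 motif, and CCGGAAG, the core bound by ETS factors such as GABP, on either strand.
COX5B: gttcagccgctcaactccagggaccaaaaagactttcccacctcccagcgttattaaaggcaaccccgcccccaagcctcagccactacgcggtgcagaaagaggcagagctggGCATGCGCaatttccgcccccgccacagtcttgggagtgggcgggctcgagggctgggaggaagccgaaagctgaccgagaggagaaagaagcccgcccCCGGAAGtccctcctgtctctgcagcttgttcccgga
COX6A1: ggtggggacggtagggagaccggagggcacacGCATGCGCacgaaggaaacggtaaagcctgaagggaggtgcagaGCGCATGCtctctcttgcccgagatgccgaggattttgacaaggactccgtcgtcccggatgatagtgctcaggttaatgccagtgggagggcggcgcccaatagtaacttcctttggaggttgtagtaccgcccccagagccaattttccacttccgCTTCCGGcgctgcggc
UQCRFS1: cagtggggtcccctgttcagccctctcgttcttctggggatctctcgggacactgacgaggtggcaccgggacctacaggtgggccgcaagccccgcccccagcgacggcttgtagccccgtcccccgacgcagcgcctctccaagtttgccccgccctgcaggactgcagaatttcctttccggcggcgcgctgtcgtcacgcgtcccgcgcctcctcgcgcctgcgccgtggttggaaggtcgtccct
NDUFS1: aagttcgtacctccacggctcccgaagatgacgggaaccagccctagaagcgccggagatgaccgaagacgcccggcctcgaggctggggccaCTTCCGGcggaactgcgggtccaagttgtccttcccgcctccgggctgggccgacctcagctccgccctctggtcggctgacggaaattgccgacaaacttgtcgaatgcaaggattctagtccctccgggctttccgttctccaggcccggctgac
Counted from the start, COX5B held the NRF1 letters at -136 to -129 and the ETS letters at -37 to -31 within the printed bases. A further ETS match of COX5B begins at -5 and runs past them. COX6A1 held the NRF1 letters at -218 to -211 and, on the other strand, at -174 to -167, and the ETS letters at -16 to -10. NDUFS1 held the ETS letters at -157 to -151, and UQCRFS1 held neither run of letters in this window. RefSeq promoters were matched for 61 of the 74 members, in a window of 250 bases before to 50 after the start, searched on both strands. GCATGCGC stood in 13 member promoters (21.3%), against 3.27% of all 27305 promoters in the table. CCGGAAG stood in 19 (31.1%), against 10.7% of all. AAGATGGC, for YY1, stood in 11 (18.0%), against 3.03%, and TGACGTCA, the cyclic AMP response element, in 5 (8.2%), against 1.98%. TGANTCA, for AP-1, stood in 3 (4.92%), against 7.76% of all promoters. By complex, the ETS letters stood in 5 of 9 complex IV promoters and the NRF1 letters in 2 of 9, those of COX5B and COX6A1. Each of these runs stood in 4 of 11 ATP synthase promoters, 2 of 3 in complex II and 5 of 31 in complex I. In complex III the NRF1 letters stood in 0 of 7 and the ETS letters in 3 of 7. Whether the letters go with the changes below was not tested. A run of letters is a description and not a shown binding site.

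Nearly the whole set was counted above near-zero levels in mock-treated cells. Levels between genes are given as a per-kb level, which is CPM divided by the annotated exon length in units of 1000 bases. CPM is a count scaled to its library's total. Values are means of the DPBS libraries pooled over experiments, so an SD also holds differences between experiments. The median per-kb level of the 74 members was 37.3, with 20.3 in complex I, 48.8 in complex II, 66.8 in complex III, 88.2 in complex IV and 37.6 in ATP synthase. ATP5F1B, the catalytic beta subunit of ATP synthase, had the highest per-kb level, 498.0 ± 32.01 in H292 (SD, n = 4) and 675.7 ± 67.8 in H1437 (SD, n = 9). ATP5F1C, the gamma subunit of its rotor, had 70.0 ± 10.6 in H292 and 145.9 ± 21.1 in H1437. Among complex I genes, NDUFS5 led with a per-kb level of 353.7 ± 62.3 in H292 and 222.0 ± 64.5 in H1437, and NDUFS6, a zinc-binding subunit, had 121.3 ± 7.5 in H292 and 228.1 ± 120.6 in H1437. COX5A, which binds on the matrix side of complex IV, had 105.4 ± 18.1 in H292 and 174.8 ± 36.6 in H1437. SDHA, the flavoprotein of succinate dehydrogenase, had 52.7 ± 2.6 in H292 and 52.3 ± 5.4 in H1437, and SDHC, a membrane anchor, 40.9 ± 6.8 in H292 and 61.3 ± 5.4 in H1437. UQCRH, the hinge protein of complex III, had 132.5 ± 31.0 in H292 and 119.7 ± 43.5 in H1437, within their spread. NDUFA13, NDUFA7 and NDUFV2 lay near 0 (0.14 per kb for NDUFA13), so their fold changes rest on few reads. These levels describe the counts on their rows, and whether the genes are expressed more than that was not tested. In all, 48 members have pseudogene rows (185 rows) that could take or give reads. The counts on these rows were 10.2% of the member's own for COX6A1 and 6.05% for SDHA. Exons of another gene overlap 42 members, ATP5ME over 61.6% and NDUFB8 over 60.0% of its length. The kit did not mark strand, so reads of overlapping genes cannot be told apart.

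Libraries held 32425310 to 53172930 counts (median 35563358). Members took 0.469% to 1.637% of the counts of a library (median 0.931%), cytosolic ribosomal protein genes 2.93% to 10.1%, and the 13 subunits of mitochondrial DNA 0.17% to 4.76%. H1437-1 and H1437-2 were uneven: members took 1.204%, 0.912% and 0.549% in ALT+Tra, 1.096%, 1.134% and 1.168% in ALT and 1.637%, 1.167% and 0.884% in DPBS of H1437-1, and 0.824% and 0.469% in the Aeg-S libraries of H1437-2. In H292-1, DPBS library 1 and aegs KO ALT library 1 were high for short members, and aegl KO ALT library 1 had 0.47% of its counts on mitochondrial DNA, against 2.13% in library 2. Epithelial markers were high (EPCAM median 245 CPM in H292 and 463 in H1437), and PTPRC, CD3E, CD68, COL3A1 and DCN were at or near 0. CDH5, named in the list of other cell types, had a median of 62.6 CPM in H292 and 4.4 in H1437, and COL1A1 30.5 and 88.6. These markers moved with the treatments. CDH5, COL1A1, KRT8 and KRT18 were each higher in 4 of 6 comparisons of a stimulus with DPBS, KRT7 in 3 and KRT19 in 2, and CDH1 was lower in 3. With a chelator against Aeg-S/L, EPCAM and KRT8 were lower in 3 of 4 comparisons, CDH5, COL1A1, KRT7 and KRT19 in 2 and KRT18 in 1, while CDH1 was higher in 2 and COL1A1 and KRT7 in 1. Their part in the members' changes was not tested.

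**Figure D1:**
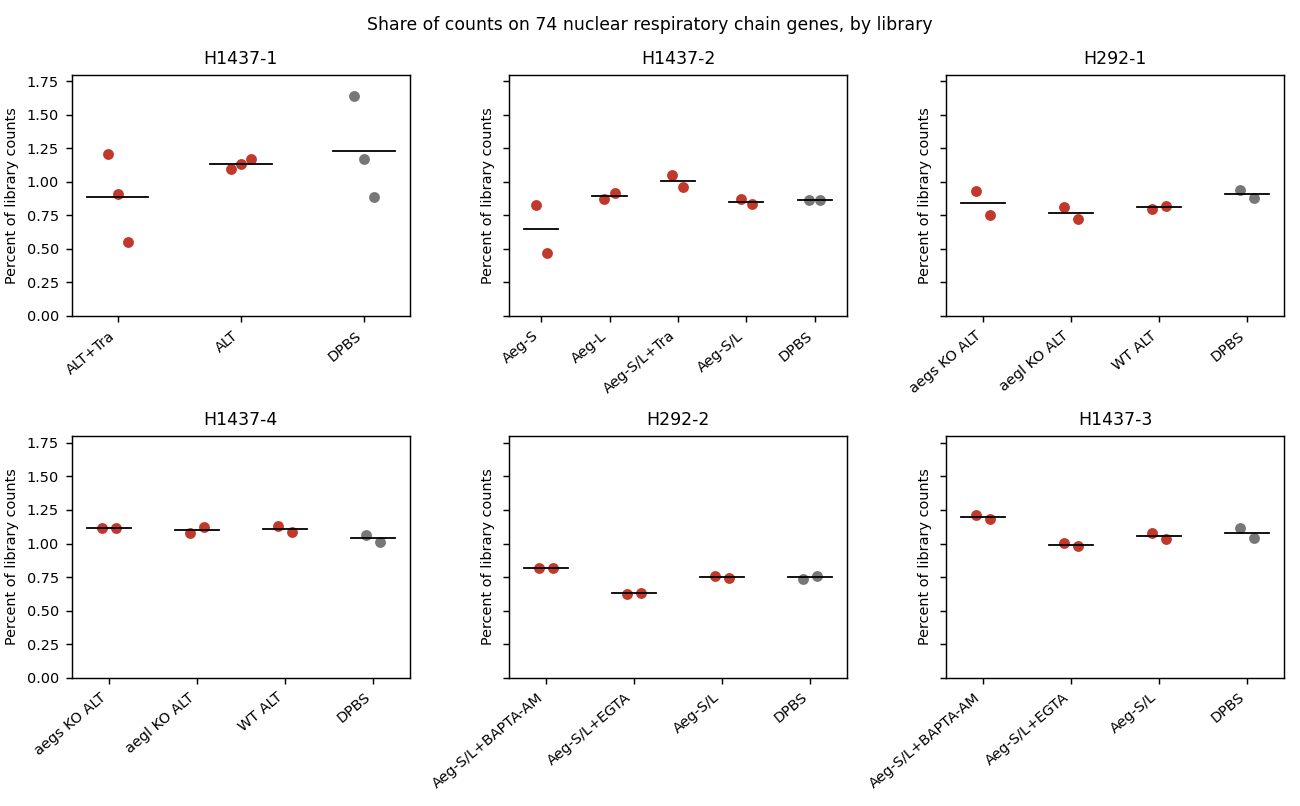
Percent of a library's counts on the 74 genes (y axis) for each library (points; bar: group mean) in the 6 experiments, with DPBS in grey. Libraries of 1 group lay close together in H1437-3, H1437-4 and H292-2, while DPBS of H1437-1 ran between 0.884% and 1.637%.

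Counts were tested with edgeR's quasi-likelihood test, adjusted over all genes, and an adjusted p under 0.05 made a call. Per-library values are CPM with totals scaled by TMM factors, which set changes against the bulk of genes in the experiment. Scaling to library totals instead, an alternative chosen after seeing the data, moved the median change of all genes by -0.16 (log2) for Aeg-S/L against DPBS in H292-2, by -0.10 in H1437-3 and H1437-2, by -0.11 for WT ALT in H292-1 and by 0.18 and 0.13 for BAPTA-AM against Aeg-S/L in H292-2 and H1437-3. It moved it by 0.12 for EGTA against Aeg-S/L in H292-2, and by 0.12 and 0.11 for aegs KO and aegl KO against WT ALT in H292-1. All changes are therefore relative to that median. In bulk RNA, fewer cells that carry a transcript and less of it per cell cannot be told apart.

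The widest change was lower expression with EGTA. In H292-2, 60 of 74 members (81.1%) were lower and 5 higher in Aeg-S/L+EGTA than in Aeg-S/L, with a median change of -0.44 (log2), while 21.7% of all genes tested were called lower and 23.2% higher. In H1437-3, 43 of 74 (58.1%) were lower and 2 higher, with a median of -0.25, while 14.8% of all genes were lower and 15.8% higher. The median of all genes lay within 0.03 of 0 in both. By scaling to library totals, 47 members were lower and 5 higher in H292-2 and 28 lower and 2 higher in H1437-3, and all 52 and 30 of these were among the calls with TMM factors, with the same sign. Without Aeg-S/L library 1, 20 members were called in H1437-3, and 23 without EGTA library 2.

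Complex IV fell as a whole, 10 of 10 members in each line, with a median of -0.56 in H292-2 and -0.34 in H1437-3. COX7B, a small membrane subunit, had 27.5 and 31.9 CPM in EGTA libraries, against 51.9 and 46.2 in Aeg-S/L and 39.0 and 39.2 in DPBS libraries of H292-2. H1437-3 gave 128.9 and 116.4 CPM with EGTA, against 178.0 and 155.3 in Aeg-S/L and 140.0 and 125.3 in DPBS. Both EGTA libraries lay below both Aeg-S/L libraries in each line, and in H292-2 also below DPBS. COX8A, the smallest subunit, had 51.9 and 56.0 CPM with EGTA and 69 and 72.8 with Aeg-S/L in H292-2, a change of -0.40 ± 0.07 (log2 ± SE, adjusted p = 0.00019). In H1437-3 it had 49.5 and 46.9 CPM with EGTA and 67.0 and 67.2 with Aeg-S/L (-0.48 ± 0.09, adjusted p = 0.0005). The groups did not overlap in either line. COX5A changed by -0.49 ± 0.06 in H292-2 (adjusted p = 2.6e-06) and by -0.17 ± 0.06 in H1437-3, where its call (adjusted p = 0.0494) was lost by library totals (adjusted p = 0.31).

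ATP synthase followed, with 14 of 15 members lower in H292-2 (median -0.52) and 10 in H1437-3 (median -0.21). ATP5F1E, the epsilon subunit, had 72.5 and 57.7 CPM with EGTA, against 115.0 and 114.2 in Aeg-S/L and 90.0 and 90.9 in DPBS libraries of H292-2 (EGTA against Aeg-S/L -0.82 ± 0.08, adjusted p = 1.3e-07). ATP5MC1, ATP5MC2 and ATP5MC3 encode the same mature subunit c of the rotor ring. In H292-2 they changed by -0.80, -0.48 and -0.52 (adjusted p = 2.1e-07, 1.7e-05 and 2.4e-07). In H1437-3 they changed by -0.39, -0.21 and -0.20 (adjusted p = 0.00016, 0.033 and 0.036), and by library totals ATP5MC1 alone of the 3 was called there. ATP5F1B had 954.9 and 950.5 CPM with EGTA, against 1310 and 1264 in Aeg-S/L and 1016 and 1052 in DPBS libraries of H292-2 (-0.43 ± 0.05 against Aeg-S/L, adjusted p = 5.0e-07). H1437-3 gave 1434 and 1441 CPM with EGTA and 1534 and 1498 with Aeg-S/L (-0.08 ± 0.04, adjusted p = 0.21), which did not pass. ATP5ME, subunit e at the dimer interface, had 4.29 and 3.94 CPM with EGTA and 6.89 and 7.42 with Aeg-S/L in H292-2 (-0.80 ± 0.18, adjusted p = 0.0012), and it changed by -0.55 ± 0.17 in H1437-3 (adjusted p = 0.022). ATP5MF, subunit f, had 62.6 and 56.9 CPM with EGTA and 90.5 and 80.0 with Aeg-S/L in H1437-3 (-0.51 ± 0.09, adjusted p = 0.00037).

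In complex I, 26 of 37 members were lower and 4 higher with EGTA in H292-2 (median -0.38), and 18 lower and 1 higher in H1437-3 (median -0.22). NDUFA1, a membrane-arm subunit needed for assembly, had 20.7 and 22.2 CPM with EGTA, against 38.7 and 38.8 in Aeg-S/L and 26.2 and 34.4 in DPBS libraries of H292-2. Its change against Aeg-S/L was -0.85 ± 0.11 (adjusted p = 5.1e-06), the largest fall of a called member there. NDUFC2, another membrane-arm subunit, had 10.7 and 12.3 CPM with EGTA and 20.9 and 19.9 with Aeg-S/L (-0.83 ± 0.11, adjusted p = 6.2e-06). In H1437-3 the largest falls were those of NDUFA11, with 7.39 and 5.60 CPM with EGTA and 10.8 and 9.32 with Aeg-S/L (-0.64 ± 0.17, adjusted p = 0.0095), and of NDUFB8 and NDUFB1. NDUFB1 had 52.1 and 48.1 CPM with EGTA and 82.2 and 68.2 with Aeg-S/L (-0.59 ± 0.11, adjusted p = 0.00065). NDUFB8, over 60.0% of which lies another gene, changed by -0.59 ± 0.19 (adjusted p = 0.027, and 0.056 by library totals). The near-zero NDUFA7 (0.385 and 0.338 CPM with EGTA, 0.032 and 0.030 with Aeg-S/L) and NDUFV2 (0.947 and 0.892 CPM with EGTA, 0.192 and 0.296 with Aeg-S/L) were called higher in H292-2 from a handful of reads (3.41 ± 1.20, adjusted p = 0.026, and 1.89 ± 0.58, adjusted p = 0.012). The call of NDUFA7 was lost without any 1 of the 4 libraries and that of NDUFV2 without Aeg-S/L library 1. Over all libraries the pseudogene row of NDUFV2 held 2103 counts, 67.6% of the 3113 counts of NDUFV2 itself.

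Complex III had 7 of 8 members lower in H292-2 (median -0.39) and 5 in H1437-3 (median -0.28), with UQCRFS1 higher in both. UQCRH had 122.4 and 115.6 CPM with EGTA, against 187.3 and 183.4 in Aeg-S/L and 139.4 and 153.6 in DPBS libraries of H292-2 (-0.64 ± 0.06 against Aeg-S/L, adjusted p = 7.8e-08), and changed by -0.30 ± 0.07 in H1437-3 (adjusted p = 0.0022). Complex II had the smallest median change of the 5 complexes, -0.23 in H292-2 and -0.07 in H1437-3. SDHA had 465.5 and 505.7 CPM with EGTA, against 509.5 and 525.8 in Aeg-S/L libraries of H292-2 (-0.09 ± 0.05, adjusted p = 0.18), and 413.7 and 434.4 with EGTA against 434.0 and 435.0 with Aeg-S/L in H1437-3 (-0.04 ± 0.05, adjusted p = 0.67). The anchors SDHC and SDHD changed by -0.32 and -0.27 in H292-2 (adjusted p = 0.00095 and 0.0040) and the iron-sulphur subunit SDHB by -0.19 (adjusted p = 0.046). By library totals SDHC alone of these passed in H292-2. None of the 4 passed in H1437-3, where they changed by -0.14 (SDHC), -0.10 (SDHD), -0.04 (SDHA) and -0.01 (SDHB).

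The same EGTA libraries were also set against DPBS. In H292-2, 52 of 74 (70.3%) were lower and 0 higher (median -0.31), beside 14.4% of all genes lower and 20.1% higher, and 23 of 37 in complex I, 1 in complex II, 5 in complex III, 10 in complex IV and 13 in ATP synthase. Without DPBS library 2 the count was 30, and by library totals 57. In H1437-3, 2 were lower and 0 higher (median -0.12), beside 5.18% of all genes called in either direction. The 2 were NDUFB2, a membrane-arm subunit of complex I (-0.34 ± 0.09, adjusted p = 0.028), and UQCR10, a small subunit of complex III (-0.26 ± 0.07, adjusted p = 0.029), both chosen after their values were seen. Without DPBS library 2 of H1437-3 the count was 14, and without either EGTA library or DPBS library 1 it was 0, with a median of -0.04 without DPBS library 1. The H292-2 and H1437-3 values for EGTA were not tested against each other.

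**Figure D2:**
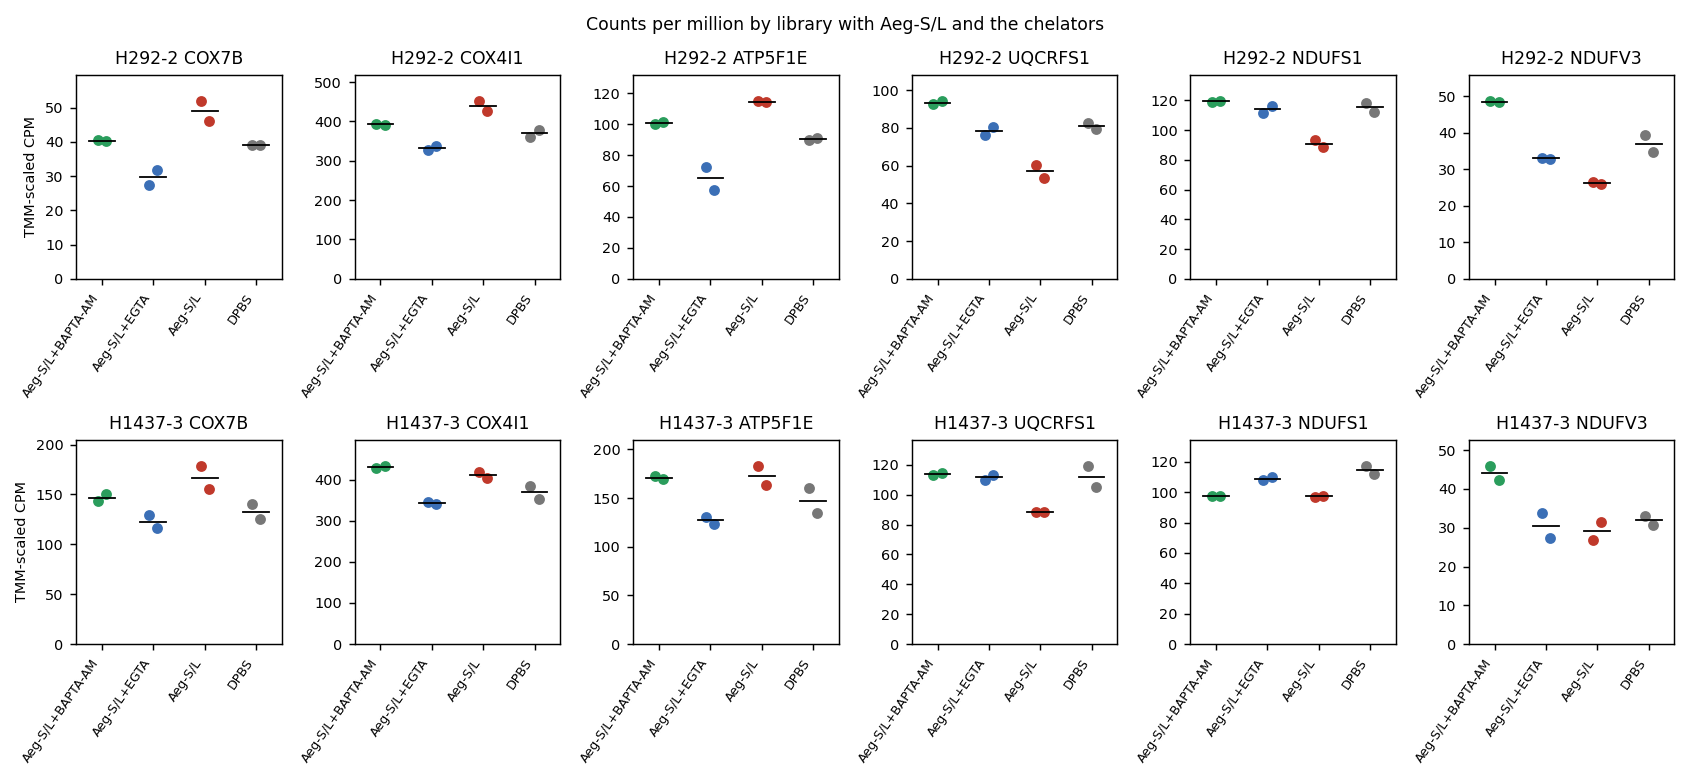
TMM-scaled CPM (y axis) of 6 members in each library (points; bar: group mean) of H292-2 (top) and H1437-3 (bottom). COX7B, COX4I1 and ATP5F1E had their lowest group means with EGTA, while UQCRFS1, NDUFS1 and NDUFV3 had theirs with Aeg-S/L alone in both lines. In H1437-3 the Aeg-S/L libraries overlapped those with BAPTA-AM for NDUFS1 and those with EGTA for NDUFV3.

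Against Aeg-S/L, fewer members were called in total with BAPTA-AM than with EGTA. Fewer were lower, but more were higher (6 against 5 with EGTA in H292-2 and 9 against 2 in H1437-3). Against DPBS the total was smaller with BAPTA-AM in H292-2 (14, and 52 with EGTA) and not in H1437-3 (22, and 2 with EGTA). In H292-2, 6 were higher and 14 lower than with Aeg-S/L (median -0.07), beside 17.6% of all genes higher and 20.3% lower. In H1437-3, 9 were higher and 1 lower (median -0.00), beside 11.6% higher and 16.1% lower. These splits depend on the scaling: by library totals they were 25 higher and 0 lower in H292-2 (median 0.11), beside 32.4% and 13.1% of all genes, and 27 higher and 0 lower in H1437-3 (median 0.12), beside 23.2% and 11.7%. The H1437-3 median also turned to 0.06 without Aeg-S/L library 1 and to 0.03 without BAPTA-AM library 2, and against DPBS it was 0.07 without DPBS library 2, as was the H292-2 median without DPBS library 1. Complex IV had 5 of 10 members lower in H292-2 (median -0.15) and 0 called in H1437-3 (median -0.02). Against DPBS, BAPTA-AM gave 13 members higher and 1 lower in H292-2 (median 0.11; all genes 17.6% higher and 19% lower) and 20 higher and 2 lower in H1437-3 (median 0.13; all genes 15% higher and 19.1% lower). Single libraries moved these counts: against Aeg-S/L to 9 and 13 without Aeg-S/L libraries 1 and 2 and 10 without either BAPTA-AM library of H292-2, and to 5 and 6 without Aeg-S/L libraries 1 and 2 and 6 without BAPTA-AM library 1 of H1437-3. Against DPBS they were 7 without either BAPTA-AM library and 8 without DPBS library 1 of H292-2, and 11 without BAPTA-AM library 1 and 8 without DPBS library 2 of H1437-3.

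Single members moved with BAPTA-AM under both scalings. NDUFV3, an accessory subunit of the NADH-binding arm of complex I, had 48.7 and 48.4 CPM with BAPTA-AM, against 26.5 and 26.1 in Aeg-S/L and 39.4 and 34.7 in DPBS libraries of H292-2. The change against Aeg-S/L was 0.89 ± 0.09 (adjusted p = 1.2e-07). H1437-3 libraries had 45.8 and 42.4 CPM with BAPTA-AM and 26.9 and 31.5 with Aeg-S/L (0.60 ± 0.11, adjusted p = 0.00043). Its BAPTA-AM libraries lay above all other libraries of H292-2 and of H1437-3. NDUFB1 rose in H292-2, to 10.3 and 10.8 CPM with BAPTA-AM, against 6.89 and 6.77 with Aeg-S/L (0.63 ± 0.16, adjusted p = 0.0033). ATP5F1D, the delta subunit of ATP synthase, had 179.7 and 179.1 CPM with BAPTA-AM and 149.1 and 149.2 with Aeg-S/L in H1437-3 (0.27 ± 0.07, adjusted p = 0.0058). NDUFV1, which carries the flavin and the NADH site of complex I, had 240.0 and 244.3 CPM with BAPTA-AM and 205.6 and 213.0 with Aeg-S/L there (0.21 ± 0.05, adjusted p = 0.0077). Also higher in H292-2 were NDUFS1 (0.39 ± 0.06, adjusted p = 3.5e-05) and UQCR10 (0.30 ± 0.11, adjusted p = 0.044, lost without Aeg-S/L library 1 or BAPTA-AM library 2), and in H1437-3 NDUFS3, a core subunit of complex I (0.24 ± 0.08, adjusted p = 0.038, lost without either Aeg-S/L library or BAPTA-AM library 1). NDUFA5 was the 1 lower member in H1437-3 (-0.33 ± 0.09, adjusted p = 0.011) and was not called by library totals or without Aeg-S/L library 1. The members lower in H292-2, among them NDUFC2 (-0.33 ± 0.11, adjusted p = 0.022), NDUFS5 (-0.30 ± 0.06, adjusted p = 0.00075), NDUFA1 (-0.44 ± 0.11, adjusted p = 0.0033), ATP5PF, coupling factor 6 (-0.39 ± 0.08, adjusted p = 0.001), and COX7C (-0.31 ± 0.07, adjusted p = 0.0013), were not called by library totals.

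With BAPTA-AM the subunits encoded in mitochondrial DNA fell, while the median of the nuclear ones stayed near 0 with TMM factors. The difference between the 2 sets was not tested. All 13 were lower than with Aeg-S/L in both lines, with a median of -3.60 in H292-2 and -1.75 in H1437-3, beside member medians of -0.07 and -0.00. MT-CO1, the catalytic core of complex IV, had 363.8 and 438.2 CPM with BAPTA-AM, against 2887 and 2485 in Aeg-S/L and 4515 and 5525 in DPBS libraries of H292-2. COX5A, a nuclear subunit of the same complex, had 136.1 and 124.7 CPM with BAPTA-AM, against 149.5 and 149.8 in Aeg-S/L and 119.8 and 126.5 in DPBS. The mitochondrial subunits took 0.17% and 0.20% of counts with BAPTA-AM, against 1.72% and 1.5% with Aeg-S/L and 1.97% and 2.28% in DPBS of H292-2. The part of this share in the members' scaling was not tested. With EGTA, 10 of 13 were lower in H292-2 (median -0.56) and 9 in H1437-3 (median -0.69), the direction of the nuclear members.

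Aeg-S/L against DPBS gave a small and scaling-dependent rise. In H292-2, 30 members were higher and 5 lower (median 0.15), beside 22.1% of all genes higher and 21.1% lower, and in H1437-3, 14 were higher and 2 lower (median 0.13), beside 15.4% and 15.8%. By library totals, 3 members were higher and 12 lower in H292-2 (median -0.01; all genes 13.1% and 30.9%) and 3 higher and 6 lower in H1437-3 (median 0.03; all genes 10.5% and 22.5%). The members' share of counts was 0.760% and 0.746% with Aeg-S/L and 0.736% and 0.760% in DPBS of H292-2, which overlap. In H1437-2, the same treatment gave 0 members called either way (median 0.06, -0.04 by library totals and -0.01 without Aeg-S/L library 1), beside 6.72% of all genes. There 2 members were higher and 1 lower at an unadjusted p under 0.05 and DESeq2 called 0.

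The 3 that rose under both scalings in H292-2 were NDUFA10, UQCRH and ATP5F1B. NDUFA10, a membrane-arm subunit of complex I, had 107.7 and 108.2 CPM with Aeg-S/L and 84.3 and 77.9 in DPBS (0.41 ± 0.06, adjusted p = 3.6e-05). UQCRH had 187.3 and 183.4 CPM with Aeg-S/L and 139.4 and 153.6 in DPBS (0.34 ± 0.06, adjusted p = 0.00014). ATP5F1B, with the values above, changed by 0.32 ± 0.05 (adjusted p = 2.3e-05). In each of the 3 the groups did not overlap. NDUFA2 (0.37 ± 0.11) and NDUFA1 (0.35 ± 0.11) passed there with TMM factors (adjusted p = 0.014 each) but not by library totals. NDUFV3 (-0.49 ± 0.09, adjusted p = 0.00016) and NDUFA5 (-0.26 ± 0.08, adjusted p = 0.016, lost without Aeg-S/L library 2 or DPBS library 1) were lower under both, as was the near-zero NDUFV2 (-1.57 ± 0.59, adjusted p = 0.038, lost without any 1 of the 4 libraries). In H1437-3, COX7B (0.33 ± 0.08, adjusted p = 0.0037) and COX6C (0.33 ± 0.08, adjusted p = 0.0071) passed under both. COX6C had 163.5 and 138.9 CPM with Aeg-S/L and 127.2 and 113.6 in DPBS. COX6A1 (0.37 ± 0.11), NDUFA3 (0.36 ± 0.12) and UQCR11 (0.37 ± 0.13) passed with TMM factors (adjusted p = 0.021, 0.036 and 0.042) but not by library totals. Complex IV had 8 of 10 members higher in H292-2 and 6 in H1437-3, and complex II 1 of 4 and 0. The H1437-3 counts rest on single libraries: 1 member was called without Aeg-S/L library 1 (median 0.07), 3 without DPBS library 2 (median 0.03), 10 without Aeg-S/L library 2 and 25 without DPBS library 1. In H292-2 they were 18 without Aeg-S/L library 1, 23 without Aeg-S/L library 2 and 20 without DPBS library 1. Comparisons of Aeg-S/L with DPBS and of a chelator with Aeg-S/L share the Aeg-S/L libraries.

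Members were mostly higher with WT ALT in H1437-4. There, 45 of 73 members (61.6%) were higher and 3 lower (median 0.27), beside 15.8% of all genes higher and 17.1% lower. By library totals, 33 were higher and 6 lower (median 0.19), beside 11.6% and 22.9%. Complex IV was higher in 10 of 10 members (median 0.38), complex I in 20 of 36 (median 0.26), complex III in 5 of 8 (median 0.29), ATP synthase in 9 of 15 (median 0.23) and complex II in 1 of 4 (median 0.08). COX6C, a membrane subunit of complex IV, had 165.9 and 149.9 CPM with WT ALT, against 101.0 and 112.1 in DPBS (0.57 ± 0.07, adjusted p = 6.6e-06). NDUFS6 had 505.3 and 421.7 CPM with WT ALT and 341.2 and 298.6 in DPBS (0.53 ± 0.08, adjusted p = 8.1e-05). NDUFB8 had 11.5 and 9.73 CPM with WT ALT and 7.65 and 6.88 in DPBS (0.54 ± 0.16, adjusted p = 0.015), a call lost without DPBS library 2 or WT ALT library 1. COX8A had 69.9 and 60.4 CPM with WT ALT and 49.99 and 41.8 in DPBS (0.50 ± 0.09, adjusted p = 0.00055), and UQCRQ, a ubiquinone-binding subunit of complex III, 143.2 and 119.1 with WT ALT against 104.0 and 85.3 in DPBS (0.47 ± 0.09, adjusted p = 0.0011). The groups did not overlap in any of these. ATP5F1B, by contrast, had 1419 and 1560 CPM with WT ALT and 1512 and 1467 in DPBS (-0.00 ± 0.05, adjusted p = 0.9995), with overlapping groups. ATP5F1A, the alpha subunit, was lower (-0.15 ± 0.06, adjusted p = 0.043), as was NDUFS1 (-0.24 ± 0.07, adjusted p = 0.018, lost without DPBS library 1 or WT ALT library 1). Without DPBS library 2, 29 members were called.

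In H292-1, 1 member was higher and 2 lower with WT ALT (median -0.24), beside 22.9% of all genes called. SDHA had 569.7 and 575.2 CPM with WT ALT and 403.4 and 430.3 in DPBS (0.46 ± 0.14, adjusted p = 0.039, and 0.087 by library totals). UQCRFS1 had 64.1 and 59.6 CPM with WT ALT and 99.8 and 95.1 in DPBS (-0.66 ± 0.16, adjusted p = 0.015). NDUFA6, a matrix-arm subunit of complex I, had 30.8 and 30.6 CPM with WT ALT and 45.8 and 42.0 in DPBS (-0.52 ± 0.14, adjusted p = 0.023). Without either WT ALT library, or without DPBS library 1, 0 members were called. In H1437-1, extract labelled ALT gave 0 members called (median -0.06), beside 4.71% of all genes, 0 at an unadjusted p under 0.05 and 0 by DESeq2. The sign of that median rests on single libraries: it was 0.38 without DPBS library 1, -0.35 without DPBS library 3 and 0.07 with the replicate block. The DPBS libraries of H1437-1 ranged widely: COX7B had 175.8, 171.3 and 182.9 CPM with ALT and 285.1, 157.4 and 77.5 in DPBS.

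The response of the lines was tested in a joint model. For WT ALT, 31 members (41.9%) had a lower change in H292-1 than in H1437-4 and 1 a higher one, SDHA, with a median difference of -0.43, beside 6.7% of all genes lower and 8.26% higher. NDUFB1 changed by -1.17 in H292-1 and by 0.45 in H1437-4, a difference of -1.62 ± 0.35 (adjusted p = 0.0081). It had 6.66 and 8.78 CPM with WT ALT and 23.8 and 10.8 in DPBS of H292-1, so 1 DPBS library stood high. SDHA differed by 0.38 ± 0.11 (adjusted p = 0.034). The count was 11 without WT ALT library 1 of H292-1, 15 without its library 2, 11 without DPBS library 2 of H1437-4 and 15 without WT ALT library 1 of H1437-4. For Aeg-S/L, 5 members had a higher change in H292-2 than in H1437-3 and 0 a lower one (median difference 0.01), beside 9.16% of all genes higher and 7.97% lower. They included ATP5F1B, COX5A, SDHA and UQCRC2, and the difference of ATP5F1B was 0.32 ± 0.06 (adjusted p = 0.001). By library totals 1 was higher and 2 lower. The count was 1 without either Aeg-S/L library of H292-2 or Aeg-S/L library 2 of H1437-3, 3 without DPBS library 2 of H292-2 or Aeg-S/L library 1 of H1437-3, and 12 without DPBS library 2 of H1437-3. Line and experiment cannot be told apart.

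Extracts labelled as knockouts were set against DPBS and against WT ALT. Against DPBS no member was called. In H1437-4 the median was 0.13 for aegs KO ALT and 0.09 for aegl KO ALT, beside 1.08% and 0.766% of all genes called. At an unadjusted p under 0.05, 28 and 22 members were higher and 0 lower, and DESeq2 called 7 and 1. In H292-1 the medians were -0.16 and -0.36, beside 0% and 0.12% of all genes. That of aegs KO ALT was -0.34 and 0.03 without its libraries 1 and 2, and -0.08 without DPBS library 1. There 3 and 30 members were lower at an unadjusted p under 0.05 and 0 higher, and DESeq2 called 0 and 8. Against WT ALT in H1437-4, aegs KO ALT had 5 members higher and 16 lower (median -0.14; all genes 15.7% higher and 14.2% lower), and aegl KO ALT 3 higher and 25 lower (median -0.18; all genes 16.2% and 14.5%). By library totals these were 10 higher and 5 lower, and 8 higher and 12 lower. Complex IV had 5 and 8 of its 10 members lower. COX6C had 126.1 and 123.7 CPM with aegs KO ALT and 121.9 and 126.8 with aegl KO ALT, against 165.9 and 149.9 with WT ALT, without overlap. In H292-1, aegs KO ALT had 1 member higher and 3 lower than WT ALT (median 0.06), beside 26.6% of all genes called, and aegl KO ALT 1 higher and 5 lower (median -0.17), beside 9.85% higher and 9.13% lower. The 1 higher member was UQCRFS1 in both. The aegs KO ALT median was -0.19 without its library 1, 0.24 without its library 2 and 0.18 by library totals, and the aegl KO ALT median -0.30 and -0.06 without its libraries 1 and 2 and -0.06 by library totals. Without either WT ALT library both counts were 0, without aegs KO ALT libraries 1 and 2 the first was 2 and 22, and without aegl KO ALT library 1 the second was 0. Against DPBS, 5 members were called for aegl KO ALT without its library 2.

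Counts against WT ALT in H1437-4 moved with single libraries. For aegs KO ALT they were 6 and 7 without its libraries 1 and 2, 11 without WT ALT library 1 and 33 without WT ALT library 2. For aegl KO ALT they were 8 and 17 without its libraries 1 and 2.

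The remaining groups gave few or no calls. Aeg-S alone in H1437-2 had 0 members called (median -0.46), beside 0% of all genes, with 13 lower and 0 higher at an unadjusted p under 0.05 and 0 by DESeq2. Its library 2 stood apart: COX7B had 103.2 and 31.8 CPM with Aeg-S, against 82.9 and 101.3 in DPBS. Without Aeg-S library 1, 43 members were called (median -0.89), and without library 2, 0 (median -0.07). Aeg-L alone had 0 called (median 0.08, and 0.01 without its library 2), beside 0% of all genes, with 0 at an unadjusted p under 0.05 and 0 by DESeq2. ALT+Tra had 0 called against DPBS (median -0.71, 71 of 74 below 0), beside 0.283% of all genes, with 2 lower and 0 higher at an unadjusted p under 0.05 and 0 by DESeq2. Its median was -0.25 without DPBS library 1, -0.39 without ALT+Tra library 3 and -1.09 without ALT+Tra library 1. Against ALT it had 0 called (median -0.65, and -0.33 and -1.03 without ALT+Tra libraries 3 and 1), beside 5.08%, with 0 at an unadjusted p under 0.05 and 0 by DESeq2. ALT+Tra library 3 was low: COX6C had 143.4, 90.3 and 12.02 CPM with ALT+Tra and 159.8, 175.2 and 169.1 with ALT. Without ALT+Tra library 1, 1 member was called against ALT.

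Aeg-S/L+Tra had 0 members called against DPBS (median 0.34), beside 0.495% of all genes, with 7 higher and 0 lower at an unadjusted p under 0.05 and 2 by DESeq2. Against Aeg-S/L it had 1 higher and 0 lower (median 0.23), beside 1.27% of all genes. That member was ATP5ME, with 6.85 and 6.16 CPM in Aeg-S/L+Tra, against 1.81 and 1.98 in Aeg-S/L and 2.51 and 3.04 in DPBS (1.78 ± 0.27 against Aeg-S/L, adjusted p = 0.0045). Over 61.6% of the length of ATP5ME lies another gene, and reads of the pair were not separated. Without Aeg-S library 2, which is in neither group, 4 members were called against Aeg-S/L and 1 against DPBS. Without either Aeg-S/L library or Aeg-S/L+Tra library 1, 0 were called against Aeg-S/L.

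**Figure D3:**
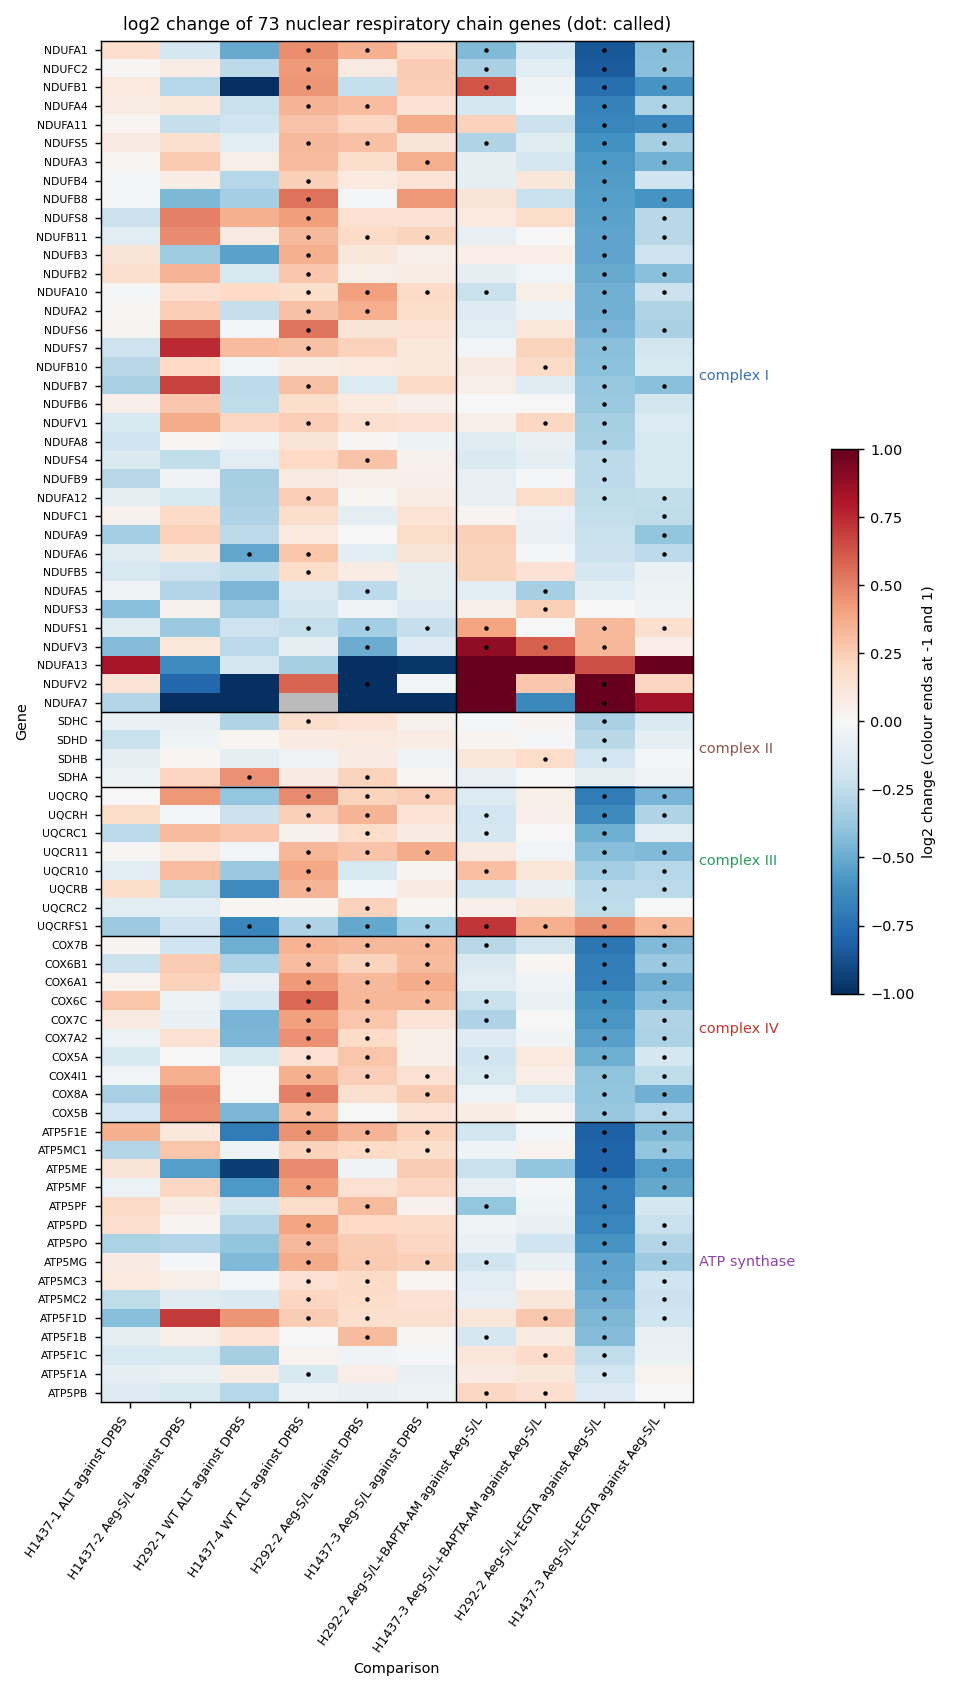
log2 change (colour, ends at -1 and 1) of 73 of the 74 genes (rows, by complex) in 10 comparisons (columns). A dot marks an adjusted p under 0.05 and grey a gene not tested. The EGTA columns are mostly blue, with 60 and 43 of all 74 members called lower, while UQCRFS1, NDUFS1 and NDUFV3 lie above 0 in both EGTA columns.

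UQCRFS1 was lower in 4 of 6 comparisons of a stimulus with DPBS and higher in all 4 comparisons of a chelator with Aeg-S/L. Most called members went the other way with WT ALT in H1437-4 and with EGTA, and, with TMM factors though not by library totals, with Aeg-S/L in H292-2 and H1437-3, but with WT ALT in H292-1 it was 1 of 2 members lower, and with BAPTA-AM in H1437-3 it was 1 of 9 higher. In H292-2 it had 76.2 and 80.5 CPM with EGTA, 92.5 and 94.2 with BAPTA-AM and 60.3 and 53.5 with Aeg-S/L, against 82.9 and 79.4 in DPBS. In H1437-3 it had 109.8 and 113.5 CPM with EGTA, 113.0 and 114.5 with BAPTA-AM and 88.7 and 88.4 with Aeg-S/L, against 118.9 and 105.3 in DPBS. The Aeg-S/L libraries were the lowest within H292-2 and within H1437-3, without overlap. Aeg-S/L against DPBS changed it by -0.51 ± 0.07 in H292-2 (adjusted p = 9.8e-06) and by -0.34 ± 0.07 in H1437-3 (adjusted p = 0.00096). BAPTA-AM against Aeg-S/L changed it by 0.71 ± 0.07 and 0.36 ± 0.07 (adjusted p = 1.2e-07 and 0.0006), and EGTA by 0.46 ± 0.07 and 0.33 ± 0.07 (adjusted p = 3.2e-05 and 0.0012). In H1437-4 it had 119.2 and 125.1 CPM with aegs KO ALT, 117.9 and 127.9 with aegl KO ALT and 90.4 and 96.8 with WT ALT, against 115.7 and 116.5 in DPBS. Only the WT ALT libraries stood low there (-0.31 ± 0.06 against DPBS, adjusted p = 0.0011).

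NDUFS1 was lower in 3 of 6 stimulus comparisons and higher in 3 of 4 chelator comparisons, and NDUFV3 lower in 1 of 6 and higher in 3 of 4. NDUFS1 had 111.6 and 116.5 CPM with EGTA, 119.1 and 119.5 with BAPTA-AM and 93.1 and 88.9 with Aeg-S/L, against 118.6 and 112.0 in DPBS libraries of H292-2. Aeg-S/L against DPBS changed it by -0.34 ± 0.06 in H292-2 (adjusted p = 0.00015) and by -0.23 ± 0.06 in H1437-3 (adjusted p = 0.0067). In both lines its Aeg-S/L libraries lay below DPBS. These calls of UQCRFS1 and NDUFS1 held by library totals. EGTA against Aeg-S/L changed NDUFS1 by 0.33 ± 0.06 in H292-2 (adjusted p = 0.00022) and by 0.16 ± 0.06 in H1437-3, a call (adjusted p = 0.0491) lost without any 1 of the 4 libraries, and changed NDUFV3 by 0.33 ± 0.09 in H292-2 (adjusted p = 0.0055). SDHA was higher in 2 of 6 stimulus comparisons and was called in none of the 4 chelator comparisons. No member was called in 1 direction in 5 or more of the 6 stimulus comparisons. Those called higher in 3 of 6 were ATP5F1E, ATP5MC1, ATP5MG, COX4I1, COX6A1, COX6B1, COX6C, COX7B, NDUFA10, NDUFB11, UQCR11 and UQCRQ.

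Most members have short transcripts, and the change varied with length. The median length of their coding transcripts in GENCODE v29 was 702.5 bases, with 59 members at 1000 bases or less and 15 longer. UQCRFS1 (3475 bases), NDUFV3 (3126 bases) and NDUFS1 (2383 bases) are the longest by this measure. In the annotation used for counting, all exons of UQCRFS1 cover only 1530 bases, so its place depends on the annotation. With EGTA against Aeg-S/L in H292-2, 52 of 59 short members (88.1%) and 8 of 15 longer ones (53.3%) were lower, beside 34.4% of all genes at 1000 bases or less and 21.4% of longer genes. In H1437-3 these were 38 of 59 (64.4%) and 5 of 15 (33.3%), beside 24.3% and 15.3%. Spearman's rho of length with change over the members was 0.44 in H292-2 and 0.48 in H1437-3, beside 0.19 and 0.21 over all genes, where genes share the libraries and are not replicates. With WT ALT in H1437-4, 40 of 58 short members (69%) were higher, beside 26.1% of short genes. Short members also varied more between DPBS libraries, pooled over the experiments of each line. The median coefficient of variation was 18.1% for short and 10.4% for longer members in H292, and 33.3% and 24.6% in H1437. The part of transcript length in these changes was not tested.

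**Figure D4:**
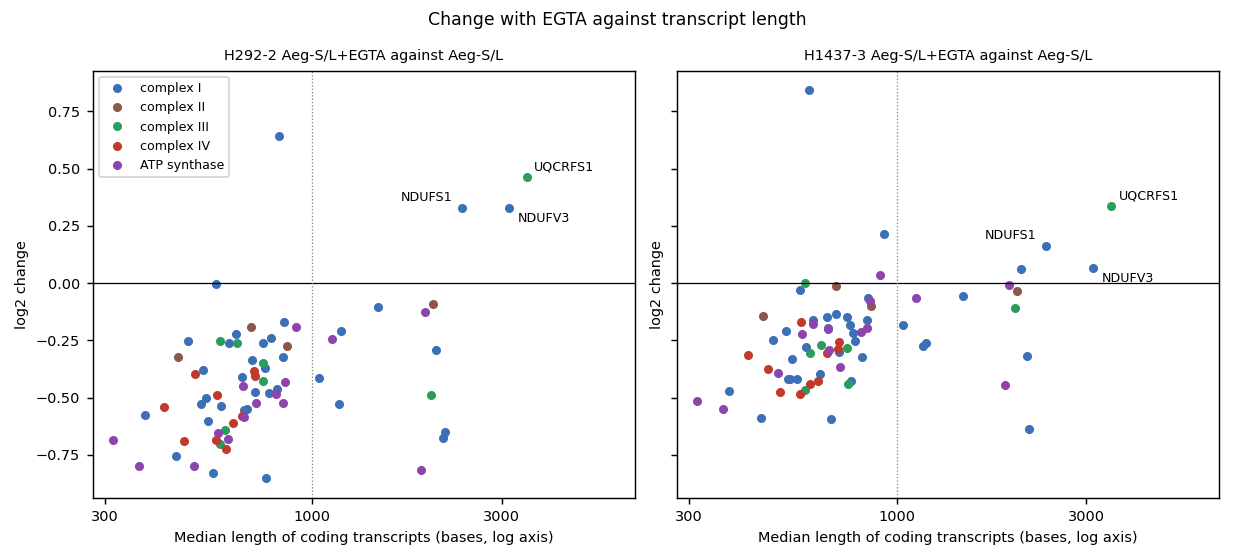
log2 change with EGTA against Aeg-S/L (y axis) by median length of coding transcripts (x axis, log scale) for each member in H292-2 (left) and H1437-3 (right), coloured by complex. Members with a change of 1 or more are not drawn. Points right of the dotted line at 1000 bases tend to lie higher, with UQCRFS1, NDUFS1 and NDUFV3 above 0. The separation is not clean. ATP5F1E (1878 bases) in H292-2 and NDUFA11 (2154 bases) in H1437-3 were among the largest falls.

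Other gene lists were set beside the members. With EGTA against Aeg-S/L, cytosolic ribosomal protein genes, which are also short, were lower in 75 of 82 tested (median -0.45) in H292-2 and in 69 of 84 (median -0.24) in H1437-3, close to the member medians of -0.44 and -0.25. Mitochondrial ribosomal protein genes were lower in 35 of 73 (median -0.18) and in 21 of 73 (median -0.10). Assembly factors of the complexes were lower in 15 and higher in 4 of 47 in H292-2 (median -0.16) and lower in 12 and higher in 3 in H1437-3 (median -0.08), beside 21.7% of all genes lower and 23.2% higher in H292-2 and 14.8% and 15.8% in H1437-3. Cytochrome c and the nuclear subunits outside the naming patterns were lower in 7 of 8 and in 5 of 8. With WT ALT in H1437-4, cytosolic ribosomal protein genes were higher in 72 of 84 (median 0.30), beside a member median of 0.27 and 15.8% of all genes higher. With Aeg-S/L they were higher in 74 of 82 (median 0.31) in H292-2 and in 44 of 84 (median 0.16) in H1437-3, beside 22.1% and 15.4% of all genes. With BAPTA-AM they were lower in 41 of 82 in H292-2 (median -0.15), and higher in 32 of 84 in H1437-3 (median 0.13), beside 20.3% and 11.6% of all genes. Whether the members differ from these lists was not tested.

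**Figure D5:**
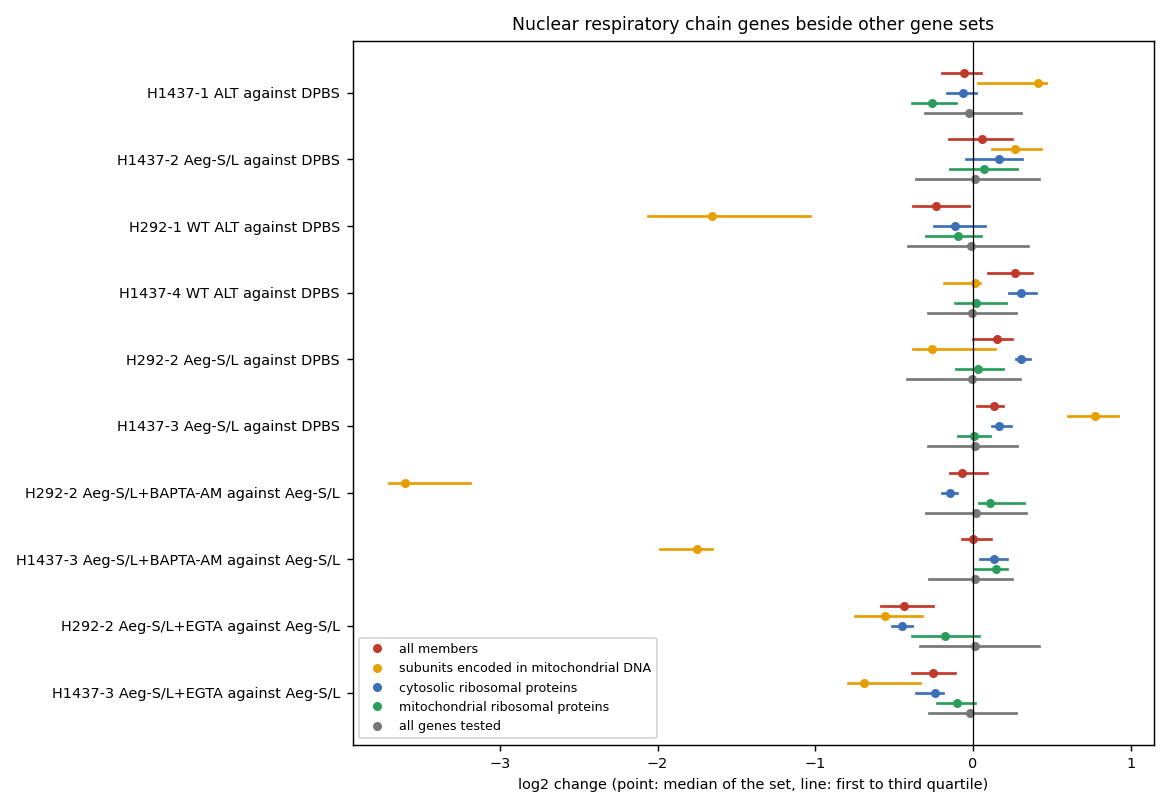
Median log2 change (point) and interquartile range (line) on the x axis for the members and other gene sets in 10 comparisons (y axis). The members lie near the cytosolic ribosomal protein genes with EGTA, and the mitochondrial DNA subunits lie far below them with BAPTA-AM, at -3.60 in H292-2 and -1.75 in H1437-3.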

How the data were processed

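RNA of the cell lines was made into libraries with a kit that does not mark strand, per the labels' protocols. Per the submitters' processing notes, which give no roles, HISAT2 2.2.1, SAMtools, featureCounts 2.0.2, DESeq2 1.36.0 and R 4.2.2 were used with hg19 for human reads. The deposited values are raw counts per gene, not normalized, in 6 human tables with 51 libraries; 7 mouse tables were not used. The share of even values among counts from 1 to 20 was 56.1% to 67.9%, and the sources used here do not say whether read pairs were counted once. Library depth was 32425310 to 53172930 counts. In H292-2 the BAPTA-AM columns name the chelator without Aeg-S/L and were matched to the Aeg-S/L+BAPTA-AM samples.

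Gene IDs were named for 51996 of 57820 rows. Each experiment was fitted alone with edgeR 4.0.16 (R 4.3.3): filterByExpr, TMM factors, 1 coefficient per group, quasi-likelihood F test, Benjamini-Hochberg adjustment over all genes tested, called at 0.05. The SE is the change divided by the root of F. A joint fit of the libraries of both lines tested differences between them. Alternatives were DESeq2 1.42.0, its size factors in edgeR, no count filter, a replicate block, each library left out, and, added after seeing the data, library totals and H1437-2 without Aeg-S library 2. The fits were tested on simulated data. Libraries of a group differed beyond sampling noise (lowest chi-square per degree of freedom 3.93). Replicate numbers are shared by the groups. In H1437-1 the deviations of same-numbered ALT+Tra and DPBS libraries correlated in all 3 pairs (0.466, 0.121 and 0.374). A pairing in that comparison is therefore possible but not shown. Same-numbered ALT and DPBS libraries of H1437-1 gave -0.143, 0.015 and -0.145. Same-numbered ALT+Tra and ALT libraries gave -0.124, 0.039 and -0.07. For ALT+Tra against DPBS the paired fit also called 0 members. In H292-1 the deviations of aegs KO ALT and DPBS libraries correlated by 0.256, so a pairing there remains possible. In the other comparisons the correlations ran from -0.145 to 0.064.

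The counts cover all 74 members, of which 1 is not reported here by itself. The members and lists were chosen with earlier results of these data known. Members given with values were, in each comparison of a stimulus, inhibitor or chelator, up to 5 called members with the largest rise and up to 5 with the largest fall without overlap of groups; the 2 of highest per-kb level in each complex; any called 1 way in 5 of the 6 stimulus comparisons; and the SDH and ATP5MC genes. Transcript lengths are from GENCODE v29, on a build other than hg19, matched by gene ID. Promoters are from RefSeq on GRCh38.p14, used for sequence only.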

Additional observations from a re-analysis of the deposited data

Results flagged for a closer look

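The change with a stimulus differed between the lines, by the joint test and past the threshold over all genes, for 5 members with Aeg-S/L and 32 with WT ALT. Given here are 4 of the 5 with Aeg-S/L and the 5 with the largest difference with WT ALT, as log2 changes, H292 first. Each line was measured in its own experiment, so line and experiment cannot be told apart.

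With Aeg-S/L, ATP5F1B changed by 0.32 in H292-2 and 0.01 in H1437-3, a difference of 0.3164 ± 0.06 (SE; adjusted p = 0.001). COX5A changed by 0.28 and 0.06, a difference of 0.2336 ± 0.07 (adjusted p = 0.032). SDHA changed by 0.22 and 0.01, a difference of 0.2202 ± 0.06 (adjusted p = 0.023). UQCRC2, a core protein of complex III, changed by 0.23 and 0.02, a difference of 0.2184 ± 0.07 (adjusted p = 0.045).

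With WT ALT, NDUFB1 changed by -1.17 in H292-1 and 0.45 in H1437-4, a difference of -1.6178 ± 0.35 (adjusted p = 0.0081). ATP5ME changed by -0.95 and 0.47, a difference of -1.4198 ± 0.39 (adjusted p = 0.026). ATP5F1E changed by -0.70 and 0.45, a difference of -1.1507 ± 0.35 (adjusted p = 0.043). ATP5MF changed by -0.57 and 0.41, a difference of -0.9809 ± 0.19 (adjusted p = 0.0041). UQCRB, which binds ubiquinone in complex III, changed by -0.63 and 0.34, a difference of -0.9718 ± 0.24 (adjusted p = 0.017). In H292-1, DPBS library 1 was above library 2 in all 5: ATP5F1E had 115.0 and 113.6 CPM with WT ALT and 257.7 and 113.2 in DPBS, and ATP5MF 46.7 and 45.2 with WT ALT and 77.7 and 59.0 in DPBS. The part of that library in the difference was not tested for single genes.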

How the results depend on the processing

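NDUFA13, NDUFA7 and NDUFV2 had counts near 0, and other genes overlap 44.7%, 30.0% and 28.4% of their exon bases. The part of overlap and of depth in these low counts was not tested. Values below are members called; counts for other settings stayed within 1.5 times. With no filter on low counts they were 22 (ALT+Tra against DPBS), 27 (ALT+Tra against ALT), 15 (Aeg-S), 3 (Aeg-S/L in H1437-2), 7 (Aeg-S/L+Tra against DPBS), 3 (Aeg-S/L+Tra against Aeg-S/L), 10 (EGTA against DPBS, H1437-3), 4 and 3 (aegs KO and aegl KO against DPBS, H1437-4), and in H292-1 18 (WT ALT), 12 (aegs KO against WT ALT) and 26 (aegl KO against DPBS). DESeq2 called 2 and 2 for Aeg-S/L+Tra (against DPBS and Aeg-S/L), 6 for EGTA against DPBS in H1437-3, 7 and 1 for aegs KO and aegl KO against DPBS in H1437-4, and in H292-1 7 (WT ALT), 7 (aegs KO against WT ALT) and 8 (aegl KO against DPBS). With DESeq2 size factors in edgeR, BAPTA-AM against DPBS gave 9 in H292-2. With a replicate block, 10 were called for EGTA against DPBS in H1437-3, 5 for WT ALT in H292-1 and 3 for the difference between lines with Aeg-S/L; it moved no other count of calls by over 1.5 times.

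By library totals, 15 and 9 were called for Aeg-S/L in H292-2 and H1437-3, 27 for BAPTA-AM against Aeg-S/L and 4 for EGTA against DPBS in H1437-3, 6 for WT ALT and 3 for aegl KO against WT ALT in H292-1, and 3 for the difference between lines with Aeg-S/L. For BAPTA-AM against Aeg-S/L the median of all members turned to 0.11 in H292-2 and 0.12 in H1437-3. Of the named members, ATP5F1B (0.0158) and UQCRC1 (0.0197), called lower in H292-2 with TMM factors, changed sign there and were not called. By construction this setting leaves out the TMM factors; why the factors differed between groups was not tested.

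Leaving out each library in turn gave, for EGTA, 58 to 64 (against Aeg-S/L) and 30 to 52 (against DPBS) in H292-2, and 20 to 33 and 0 to 14 in H1437-3. For BAPTA-AM it gave 9 to 13 and 7 to 12 in H292-2, and 5 to 10 and 8 to 29 in H1437-3. For Aeg-S/L it gave 18 to 25 in H292-2 and 1 to 25 in H1437-3, for WT ALT 0 to 2 in H292-1 and 29 to 47 in H1437-4, for aegs KO against WT ALT 0 to 22 in H292-1 and 6 to 33 in H1437-4, and for aegl KO against WT ALT 0 to 9 and 8 to 36. For aegl KO against DPBS in H292-1 it gave 0 to 5, for Aeg-S 0 to 43, for Aeg-S/L+Tra 0 to 4 against Aeg-S/L and 0 to 1 against DPBS, and for ALT+Tra against ALT 0 to 1. Differences between lines gave 1 to 12 (Aeg-S/L) and 11 to 42 (WT ALT). A group left with 1 library was assumed to vary like the others.

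Of 28 medians of the members, 13 moved beyond the spread between libraries by library totals, as did 35 of 122 with a library left out. Of 206 values of named members, 198 kept direction and side of the threshold with DESeq2, 203 with its size factors, 197 without the filter, 200 with the block and 160 by library totals, as did 731 of 870 with a library left out. The cause of changes was not tested.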

Other observations

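Known regulators of these genes moved in both lines. GABPA, the DNA-binding subunit of GABP, was lower in 5 of 6 comparisons of a stimulus with DPBS and higher in 3 of 4 comparisons of a chelator with Aeg-S/L. In H292-2 it had 54.5 and 59.1 CPM with EGTA, 33.4 and 33.7 with BAPTA-AM and 27.7 and 29.9 with Aeg-S/L, against 55.7 and 52.7 in DPBS. In H1437-3 it had 35.4 and 36.8 CPM with EGTA, 22.2 and 20.7 with BAPTA-AM and 17.2 and 17.7 with Aeg-S/L, against 32.4 and 37.3 in DPBS. EGTA libraries lay with DPBS and Aeg-S/L libraries lowest within H292-2 and within H1437-3. Aeg-S/L against DPBS changed GABPA by -0.91 ± 0.08 (log2 ± SE, adjusted p = 4.6e-08) in H292-2 and by -1.0 ± 0.10 (adjusted p = 8.5e-07) in H1437-3. EGTA against Aeg-S/L changed it by 0.98 ± 0.08 (adjusted p = 2.1e-08) and by 1.05 ± 0.10 (adjusted p = 7.5e-07), while most members with EGTA were lower.

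PPRC1, a coactivator of the PGC-1 family, was higher in 5 of 6 stimulus comparisons and lower in all 4 chelator comparisons. In H292-2 it had 157.0 and 133.8 CPM with EGTA, 82.0 and 85.2 with BAPTA-AM and 194.7 and 183.0 with Aeg-S/L, against 59.3 and 62.8 in DPBS, without overlap of groups. Aeg-S/L against DPBS changed it by 1.63 ± 0.07 (adjusted p = 9.3e-13) there and by 0.84 ± 0.07 (adjusted p = 1.0e-07) in H1437-3. PPARGC1A, which encodes PGC-1alpha, was lower in 4 of 6 stimulus comparisons. In H1437-3 it had 75.9 and 74.95 CPM with EGTA, 26.0 and 26.8 with BAPTA-AM and 55.8 and 53.5 with Aeg-S/L, against 60.7 and 66.6 in DPBS. TFB1M was lower in 4 of 6 and higher in 4 of 4 chelator comparisons, ESRRA and NFE2L2 were higher in 4 of 6, and NRF1 was called in 1 of 6. FOS, which checks that the stimuli acted, was higher in all 6. These genes were taken from a list of regulators of which 14 were tested with EGTA against Aeg-S/L, 6 higher and 4 lower in H292-2 and 6 higher and 3 lower in H1437-3, beside 23.2% of all genes higher and 21.7% lower in H292-2 and 15.8% and 14.8% in H1437-3.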
